A study of Mus musculus with 6 samples.

Results

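The SLAM family receptors and the SH2 domain adaptors grouped with them were followed across 6 expression arrays of regulatory T cells (Treg cells, the Foxp3-dependent CD4 T cells that hold immune responses in check). The set comprised 8 genes, taken by name with earlier results of these data known. They were the receptors Slamf1, Slamf6, Slamf7, Ly9, Cd84 and Cd48, and the adaptors Sh2d1a and Sh2d2a. Every probe set annotated to 1 of these symbols alone was used, giving 13 of the 45101 probe sets on the Affymetrix array and 8 of the 18194 genes named on it. All 8 genes lay above the filter on dim genes, so every one of them was tested.

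The cells were sorted from C57BL/6 mice of 4 genotypes, and 2 ug of total RNA was labelled for each array, per the labels. Wild-type mice (WT) and Foxo1 knockout mice (Foxo1KO) gave 2 arrays each. Mice with a constitutively active form of the transcription factor Foxo1 (Foxo1AAA) gave 1 array, as did knockout mice carrying that form (Foxo1KO/Foxo1AAA). The design asks which genes need Foxo1 and whether the active form brings their expression back. The sources used here give neither age nor sex, nor the driver of the deletion, the deleted part of Foxo1, the site of the active form or the sorting gates, and do not say whether the replicates came from different mice. The p-values therefore reflect only how far these arrays spread. Within WT and within Foxo1KO the 2 arrays differed in the Y-linked Eif2s3y (3.91 and 10.09, and 4.05 and 9.91). They were thus not repeats of 1 RNA sample. The array of high Eif2s3y in each group was also high in Xist (1436936_s_at, 12.03 in WT and 12.59 in Foxo1KO), so it held sex-linked transcripts of both kinds. The number of mice behind each array is not given. The arrays' number limits the precision, and a group with 1 array is taken to vary as the replicated groups do.

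SLAM receptors are immunoglobulin-like surface proteins of blood cells. Most of them bind a copy of themselves on a neighbouring cell, while Cd48, which is held in the membrane by a lipid anchor, binds Cd244 and Cd2. When engaged, many but not all of the receptors recruit the small SH2 adaptor SAP, the product of Sh2d1a, through tyrosine motifs in their tails. SAP brings in the kinase Fyn. In T cells this pathway supports lasting contacts with B cells and the development of NKT cells. Sh2d2a encodes TSAd, a T cell adaptor known for binding the kinase Lck rather than the SLAM tails.

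The promoters of the receptors whose brightest probe set changed without Foxo1 are shown first, because 1 fell and others rose although the genes lie in 1 cluster. RefSeq promoter windows of GRCm38.p6, which run from 250 bases before to 50 bases after the gene start, were found for 5 of the 8 genes (Slamf1, Slamf6, Slamf7, Cd84 and Cd48). Those of the 3 that changed by that probe set are printed 5′ to 3′ on the strand of the gene. Cd84, which changed by its dimmer probe set only, is not printed. Capitals mark AAACA, the core of forkhead binding motifs, read on either strand, so that it appears as AAACA or TGTTT.
Slamf6, plus strand, chr1:171917212-171917511: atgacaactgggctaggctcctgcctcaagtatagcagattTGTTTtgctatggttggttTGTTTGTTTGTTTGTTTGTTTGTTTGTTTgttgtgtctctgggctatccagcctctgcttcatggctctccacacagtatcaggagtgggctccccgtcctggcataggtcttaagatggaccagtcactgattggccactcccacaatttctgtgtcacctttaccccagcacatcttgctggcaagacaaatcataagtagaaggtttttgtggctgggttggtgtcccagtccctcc
Slamf7, minus strand, chr1:171648950-171649249: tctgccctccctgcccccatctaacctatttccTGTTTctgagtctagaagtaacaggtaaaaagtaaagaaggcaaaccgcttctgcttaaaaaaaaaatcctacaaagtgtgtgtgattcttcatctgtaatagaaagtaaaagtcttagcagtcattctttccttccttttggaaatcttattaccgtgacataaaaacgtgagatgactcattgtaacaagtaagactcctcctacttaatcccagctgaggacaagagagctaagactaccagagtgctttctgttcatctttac
Cd48, plus strand, chr1:171681742-171682041: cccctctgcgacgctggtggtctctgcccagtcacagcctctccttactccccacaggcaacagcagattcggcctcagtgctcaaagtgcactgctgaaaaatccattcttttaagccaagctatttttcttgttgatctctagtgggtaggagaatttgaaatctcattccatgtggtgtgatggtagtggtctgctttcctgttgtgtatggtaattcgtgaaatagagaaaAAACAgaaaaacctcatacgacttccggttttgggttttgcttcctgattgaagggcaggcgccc
The longer Foxo motif GTAAACA, which contains AAACA, was searched on both strands and had no match in any of the 5 windows. It occurs in 3.65% of the 32851 RefSeq promoter windows. The shorter AAACA, chosen for display after the values were seen, had 8 matches in Slamf6, 1 each in Slamf7, Cd84 and Cd48, and 0 in Slamf1. At least 1 match occurs in 50.5% of all windows and at least 8 in 0.11%. In Slamf6, 7 of the 8 matches overlap in 1 run with a spacing of 4 bases, a simple repeat. Matches are given as a description of these windows.

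The labels were first checked against Foxo1 and cell type markers. Of 4 Foxo1 probe sets, the 3 bright ones differed by -0.54, -0.49 and -0.43 between Foxo1KO and WT, and the first 2 of these were called lower (adjusted p = 0.023 and 0.035, limma). The same 3 did not show the added form. They differed by -0.38, -0.22 and -0.48 between Foxo1AAA and WT (adjusted p = 0.11, 0.32 and 0.065) and were lower in Foxo1KO/Foxo1AAA than in Foxo1KO, with differences of -0.76, -0.58 and -1.10 (adjusted p = 0.0079, 0.022 and 0.0021). Whether these probe sets can read the active form is not given here, so every direction drawn from those 2 arrays rests on their labels alone. Array pairs correlated at 0.951 or above over the tested genes. Treg markers gave a summed signal of 14.67 to 14.98 (log2 of the sum of linear values) on all 6 arrays. Such a sum is weighted towards its brightest genes, such as Ikzf2 (13.26 to 13.63) and Ctla4 (12.29 to 13.06). Foxp3 had 1 probe set, at 5.10 to 5.58, near the filter level. Of 6 tested Treg markers, Ctla4 was called higher and Cd4 lower in Foxo1KO. The Ctla4 call was lost without WT replicate 2 (adjusted p = 0.24) or either Foxo1KO array (0.068 and 0.23), and that of Cd4 without any 1 replicated array (0.066 to 0.089). With active Foxo1, Ikzf2 differed by -0.34 from Foxo1KO to Foxo1KO/Foxo1AAA and by -0.28 from WT to Foxo1AAA. The median of the tested Treg markers was -0.23 between Foxo1KO/Foxo1AAA and WT, against -0.02 over all tested genes. The arrays with active Foxo1 stood apart in markers of antigen-presenting cells. Myeloid sums were 9.49 to 10.29 on the WT and Foxo1KO arrays, 12.76 in Foxo1AAA and 13.06 in Foxo1KO/Foxo1AAA, with 4 of 5 tested markers higher in Foxo1AAA than in WT and Itgam below the filter level on all 6 arrays. Dendritic cell sums were 9.43 to 9.84 in WT, 10.31 to 11.36 in Foxo1KO, 12.68 in Foxo1AAA and 12.81 in Foxo1KO/Foxo1AAA, with 5 of 5 higher in Foxo1AAA and Xcr1 below the filter level throughout. B cell sums were 9.44 to 10.17 on the WT and Foxo1KO arrays, 10.99 in Foxo1AAA and 10.79 in Foxo1KO/Foxo1AAA, with 4 of 5 higher in Foxo1AAA. Of all tested genes, 27.5% were called between Foxo1AAA and WT and 21.8% between Foxo1KO and WT, in either direction. In Foxo1KO, 1 of 5 B cell markers (Cd22), 1 of 5 myeloid markers (Lyz2) and 2 of 5 dendritic cell markers (H2-Aa and H2-Eb1) were higher. For the B cell and myeloid lists these counts are near the share of all genes. The call of H2-Eb1 was lost without Foxo1KO replicate 1 (adjusted p = 0.067), both were lost with a robust variance prior (0.17 for H2-Aa and 0.13 for H2-Eb1), and the H2-Aa difference was 0.98 without Foxo1KO replicate 1 and 2.24 without replicate 2. These markers stand beside every value below from the arrays with active Foxo1, and their part in those values was not tested. In bulk samples a change in the share of a cell type and a change of RNA per cell cannot be told apart. All 4 cell cycle markers were higher in Foxo1KO, with sums of 12.01 to 12.20 in WT, 13.64 on both Foxo1KO arrays, 13.37 in Foxo1AAA and 13.67 in Foxo1KO/Foxo1AAA.

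**Figure D1:**
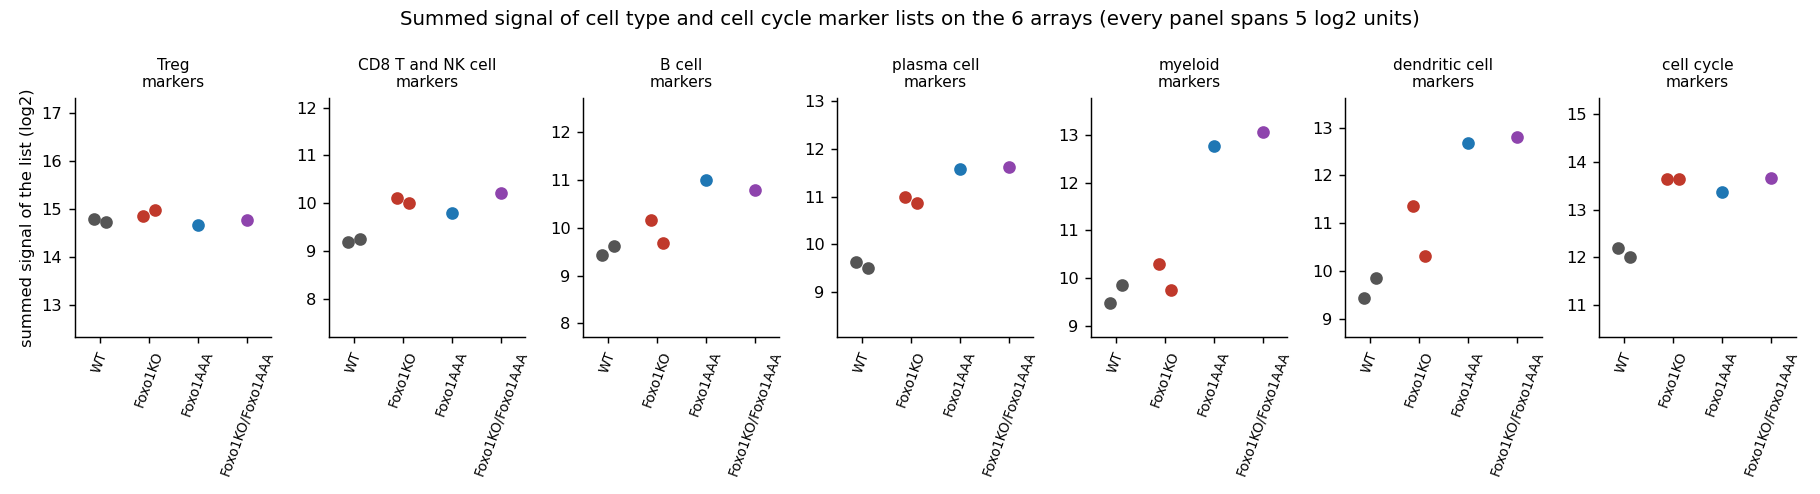
Summed signal of each marker list (log2 of the sum of linear values, vertical axis) on the 6 arrays, a point per array. Treg sums, weighted towards their brightest genes, lie between 14.67 and 14.98. Myeloid sums reach 12.76 and 13.06 on the arrays with active Foxo1 against at most 10.29 on the others.

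Without Foxo1, 4 of the 8 genes changed, 2 lower and 2 higher. Slamf6 and the adaptor Sh2d1a fell, Slamf7 and Cd48 rose, and Slamf1, Ly9, Cd84 and Sh2d2a were not called. Calls rest on limma, with p-values adjusted over the 13645 tested genes and a threshold of 0.05, and 21.8% of those genes were called in this comparison, 1523 higher and 1457 lower. Single arrays add nothing to the estimate of spread, so this comparison rests on the 4 WT and Foxo1KO arrays alone. The median absolute difference was 0.38 log2 units over the 8 genes and 0.15 over all tested genes. Of the 13 probe sets, 7 were called, 5 lower and 2 higher, against 13.7% of all probe sets fitted together. Because the 8 genes were chosen with earlier results of these data known, such contrasts with all genes describe the list and do not test it.

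**Figure D2:**
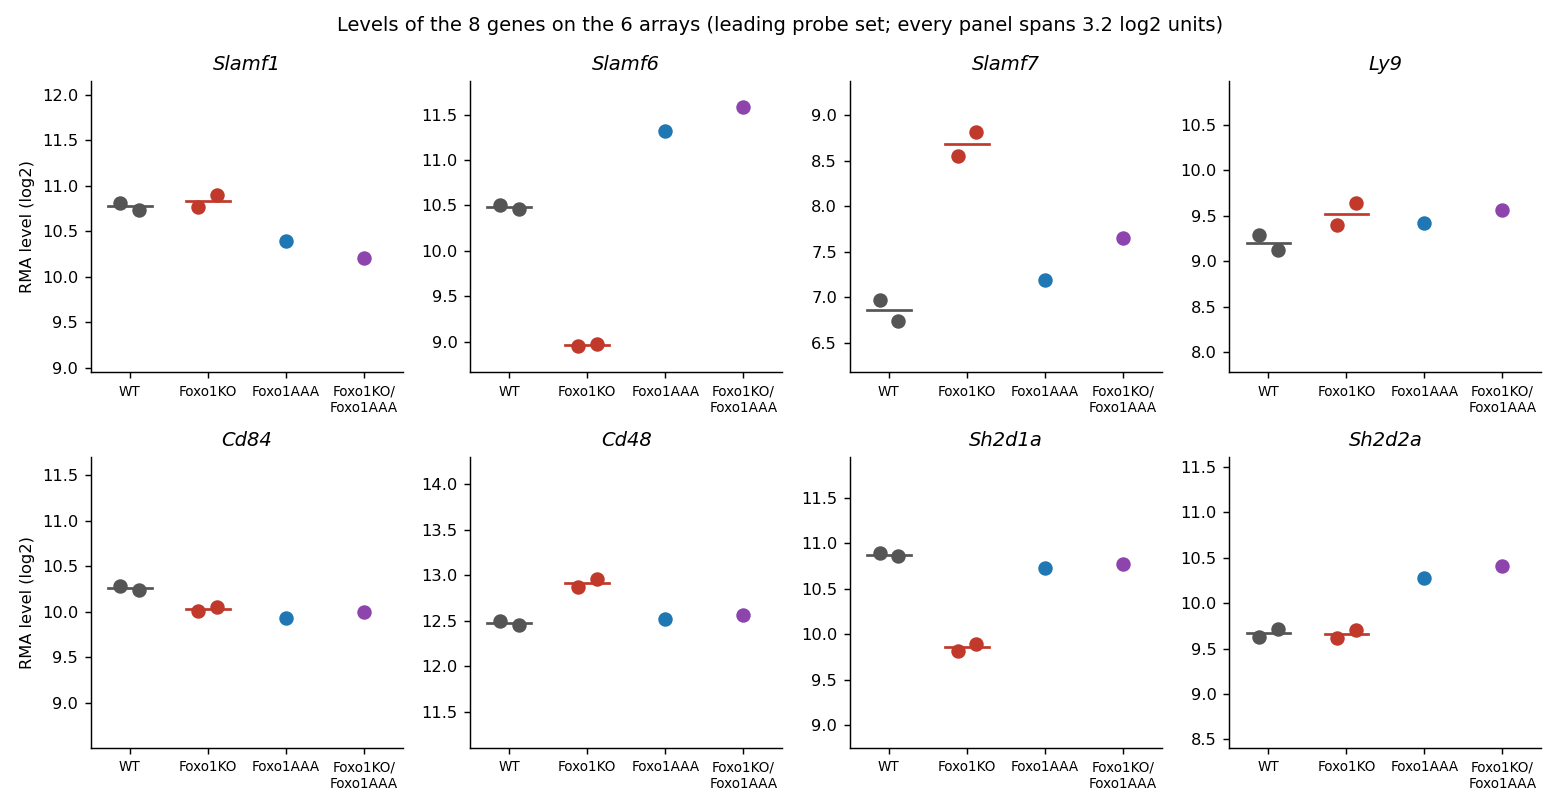
RMA level (log2, vertical axis) of each gene's leading probe set on the 6 arrays by genotype, with a point per array and a line at the mean of the replicated groups. Slamf6 and Sh2d1a sit low and Slamf7 and Cd48 high on both Foxo1KO arrays, while Sh2d2a is raised on the Foxo1AAA and Foxo1KO/Foxo1AAA arrays.

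Among the receptors, Slamf6 (Ly108), which pairs with itself between lymphocytes, fell most. Its leading probe set, 1425086_a_at, measured 10.50 and 10.46 in WT and 8.96 and 8.98 in Foxo1KO. It measured 11.32 on the Foxo1AAA array and 11.58 on the Foxo1KO/Foxo1AAA array. The groups did not overlap, and the order ran from Foxo1KO through WT to the arrays with active Foxo1. The knockout difference was -1.51 log2 units (SE 0.09, 2.86-fold, limma adjusted p = 1.2e-05).

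With active Foxo1, Slamf6 did not stop at the WT level. It rose by 2.61 from Foxo1KO to Foxo1KO/Foxo1AAA (SE 0.11, 6.11-fold, adjusted p = 2.2e-06, limma). It was then 1.10 above WT (SE 0.11, adjusted p = 2.3e-04), and the Foxo1AAA array was 0.84 above WT (SE 0.11, adjusted p = 0.0013). The Foxo1KO/Foxo1AAA and Foxo1AAA arrays differed by 0.26, with a 95% interval from -0.03 to 0.55. Every alternative that was run kept these Slamf6 calls.

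The other 2 probe sets of Slamf6 moved the same way in the knockout. Probe set 1420659_at measured 9.69 and 9.67 in WT, 8.33 and 8.18 in Foxo1KO, 10.18 in Foxo1AAA and 10.26 in Foxo1KO/Foxo1AAA. Probe set 1457773_at measured 8.72 and 8.40 in WT, 6.67 and 6.73 in Foxo1KO, 8.96 in Foxo1AAA and 8.90 in Foxo1KO/Foxo1AAA. Fitted with every probe set, they fell by 1.42 and 1.87 in Foxo1KO (adjusted p = 6.6e-05 and 4.6e-05) and rose by 2.01 and 2.20 from there with active Foxo1 (adjusted p = 2.5e-05 and 4.2e-05). In Foxo1KO/Foxo1AAA the excess over WT was 0.59 for 1420659_at (adjusted p = 0.012) and 0.34 for 1457773_at (adjusted p = 0.14). Both were smaller than that of the leading probe set, by 0.51 and 0.76 (adjusted p = 0.040 and 0.015, limma), in the test of gaps between probe sets described with Cd84, where 28.6% of all pairs were called.

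Slamf7 (CRACC), a receptor best known from NK cells, cytotoxic T cells and plasma cells, moved in the opposite direction. Its only probe set, 1453472_a_at, measured 6.97 and 6.74 in WT, 8.55 and 8.81 in Foxo1KO, 7.19 in Foxo1AAA and 7.65 in Foxo1KO/Foxo1AAA. Both Foxo1KO arrays were above all others. The rise was 1.83 (SE 0.12, 3.55-fold, limma adjusted p = 2.3e-05). It fell by 1.03 from Foxo1KO to Foxo1KO/Foxo1AAA (SE 0.15, adjusted p = 0.0013) and there remained 0.79 above WT (SE 0.15, adjusted p = 0.0058), so the return was incomplete on that array. The Foxo1AAA array lay 0.34 above WT and was not called (95% interval from -0.01 to 0.68, adjusted p = 0.13).

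Some markers of cells that carry Slamf7 moved beside it, and others did not. In Foxo1KO, where 21.8% of all tested genes were called, 2 of 5 CD8 T and NK cell markers were higher (Eomes by 2.25, Klrd1 by 1.23). The sums of this list were 9.18 to 9.24 in WT, 10.00 to 10.10 in Foxo1KO, 9.79 in Foxo1AAA and 10.22 in Foxo1KO/Foxo1AAA. The defining pair of that list, Cd8a (0.19) and Cd8b1 (0.18), did not pass the threshold. Neither did the NK cell marker Ncr1 (0.21, adjusted p = 0.31, limma), which lay below the filter level on 3 arrays. Of 3 tested plasma cell markers, 2 were higher (Jchain by 3.22, and Prdm1, which effector Treg cells also express, by 1.27), while Sdc1 differed by 0.07 and Tnfrsf17 lay below the filter level on all 6 arrays. The WT values of Klrd1 (5.16 and 5.60) and Jchain (5.35 and 5.62) lay near the filter level of 5.47. Plasma cell sums were 9.51 to 9.63 in WT, 10.87 to 10.98 in Foxo1KO, 11.57 in Foxo1AAA and 11.61 in Foxo1KO/Foxo1AAA. From Foxo1KO to Foxo1KO/Foxo1AAA, where Slamf7 fell, these markers went in both directions, and Cd8a and Cd8b1 parted. Eomes fell by 1.19 (adjusted p = 1.7e-04), Cd8a by 0.63 (0.010) and Sdc1 by 0.56 (0.0056, all limma). Klrd1 rose by 1.95 (adjusted p = 2.2e-04), Cd8b1 by 0.92 (4.8e-04) and Jchain by 1.69 (0.0054, all limma). The part of these markers in the values of Slamf7 was not tested.

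Cd48, the lipid-anchored ligand of Cd244 and Cd2, showed a smaller change of the same form. Probe set 1427301_at measured 12.50 and 12.45 in WT, 12.88 and 12.96 in Foxo1KO, 12.52 in Foxo1AAA and 12.57 in Foxo1KO/Foxo1AAA. The Foxo1KO arrays were again the highest, and the other 4 lay within a narrow band. The rise was 0.44 (SE 0.09, 1.36-fold, limma adjusted p = 0.0094), and leaving out Foxo1KO replicate 2 took it past the threshold (0.40, adjusted p = 0.061). Over its alternatives the adjusted p of this rise ran from 3.4e-04 to 0.061. The fall of 0.35 with active Foxo1 (SE 0.11, adjusted p = 0.039) was lost when 1 WT array was left out (adjusted p = 0.052 for either), without Foxo1KO replicate 1 (0.068) or replicate 2 (0.11), when every probe set was fitted (0.058) and with the replicate number as a block (0.089). For this fall the adjusted p over all alternatives ran from 0.0047 to 0.11.

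Ly9 (CD229), a self-binding receptor of T and B cells, measured 9.29 and 9.12 in WT, 9.39 and 9.64 in Foxo1KO, 9.42 in Foxo1AAA and 9.56 in Foxo1KO/Foxo1AAA. The difference of 0.32 between Foxo1KO and WT was not called (95% interval 0.05 to 0.58, adjusted p = 0.092). It passed the threshold with cyclic loess normalization (adjusted p = 0.037, range over alternatives 0.037 to 0.37). The Foxo1KO and Foxo1KO/Foxo1AAA arrays differed by 0.05 (95% interval from -0.28 to 0.37).

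Cd84, another self-binding receptor that signals through SAP, gave 2 probe sets that did not move alike. The brighter one, 1422875_at, measured 10.28 and 10.23 in WT, 10.00 and 10.05 in Foxo1KO, 9.93 in Foxo1AAA and 9.99 in Foxo1KO/Foxo1AAA. WT was the highest group, the other 4 arrays lay close together, and the knockout difference of -0.23 was not called (95% interval from -0.44 to -0.02, adjusted p = 0.12). Probe set 1446505_at measured 8.65 and 8.54 in WT, 7.44 and 7.60 in Foxo1KO, 8.22 in Foxo1AAA and 8.13 in Foxo1KO/Foxo1AAA. Fitted with every probe set it fell by 1.08 in Foxo1KO (adjusted p = 2.9e-04), rose by 0.61 from there in Foxo1KO/Foxo1AAA (adjusted p = 0.0098), and remained lower than WT on that array by 0.47 (adjusted p = 0.033).

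The disagreement was tested on the gap between the probe sets, a test chosen after the values were seen. Each further probe set of a gene was set against the leading one on the same array, for all 10755 such pairs above the filter level. The Cd84 gap was -1.63 and -1.69 in WT, -2.56 and -2.45 in Foxo1KO, -1.71 in Foxo1AAA and -1.87 in Foxo1KO/Foxo1AAA. It widened by 0.85 in Foxo1KO (SE 0.12, limma adjusted p = 0.0091), where 5.54% of all pairs were called. It narrowed by 0.64 from Foxo1KO to Foxo1KO/Foxo1AAA (SE 0.15, adjusted p = 0.017), where 29.0% of all pairs were called. Which transcripts of Cd84 each probe set reads was not analysed here, and with both probe sets averaged Cd84 was called lower in Foxo1KO (-0.65, adjusted p = 0.0010, range over alternatives 0.0010 to 0.36).

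**Figure D3:**
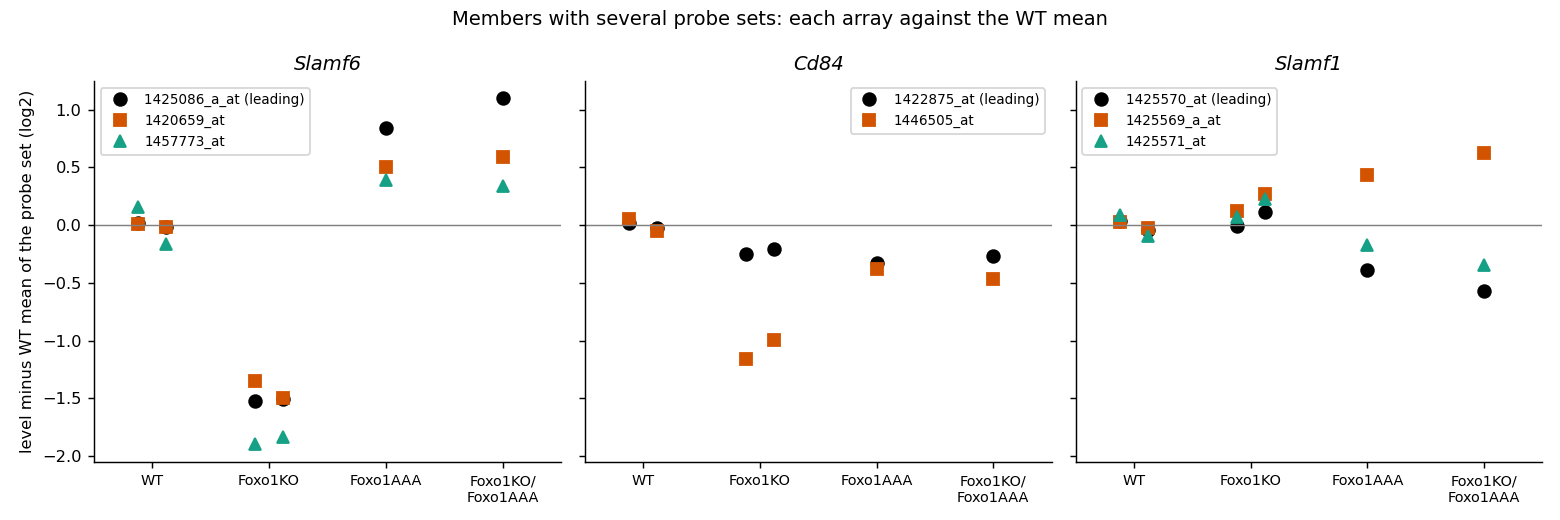
Level of each probe set minus its own WT mean (log2, vertical axis) on the 6 arrays for the 3 genes with several probe sets. The 3 probe sets of Slamf6 fall together in Foxo1KO, 1 of 2 probe sets of Cd84 falls by 1.08, and those of Slamf1 part on the Foxo1AAA and Foxo1KO/Foxo1AAA arrays.

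Slamf1 (CD150), the founding member of the family, did not differ between Foxo1KO and WT beyond the spread. Its leading probe set, 1425570_at, measured 10.81 and 10.74 in WT and 10.77 and 10.89 in Foxo1KO, so the groups overlapped (difference 0.05, 95% interval from -0.17 to 0.28, adjusted p = 0.75). It measured 10.39 in Foxo1AAA and 10.21 in Foxo1KO/Foxo1AAA, below the other 4 arrays. From Foxo1KO to Foxo1KO/Foxo1AAA it fell by 0.62 (SE 0.12, limma adjusted p = 0.0043). The Foxo1AAA array was lower than WT by 0.38 (SE 0.12, adjusted p = 0.042), a call lost without WT replicate 1 (0.13), WT replicate 2 (0.075) or either Foxo1KO array (0.051), with the replicate number as a block (0.090), with every probe set fitted (0.057) and with the 3 probe sets averaged (-0.04, adjusted p = 0.80). Its range over alternatives was 0.0099 to 0.80.

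The 3 probe sets of Slamf1 did not give 1 direction with active Foxo1. Probe set 1425571_at followed the leading one, with 9.13 and 8.94 in WT, 9.10 and 9.26 in Foxo1KO, 8.86 in Foxo1AAA and 8.69 in Foxo1KO/Foxo1AAA. Probe set 1425569_a_at went the other way, with 7.63 and 7.58 in WT, 7.73 and 7.87 in Foxo1KO, 8.04 in Foxo1AAA and 8.23 in Foxo1KO/Foxo1AAA. Its gap to the leading probe set narrowed by 0.82 from WT to Foxo1AAA (SE 0.14, adjusted p = 0.0091) and by 1.05 from Foxo1KO to Foxo1KO/Foxo1AAA (SE 0.14, adjusted p = 0.0029, both limma). Gaps were called in 24.0% and 29.0% of all pairs in those comparisons. Averaged over the 3 probe sets the change from Foxo1KO was lower by 0.23 and not called (adjusted p = 0.13, range over alternatives 0.0012 to 0.13).

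Of the adaptors, Sh2d1a fell without Foxo1 and came back. Probe set 1449393_at measured 10.89 and 10.86 in WT, 9.82 and 9.90 in Foxo1KO, 10.73 in Foxo1AAA and 10.77 in Foxo1KO/Foxo1AAA. Both Foxo1KO arrays lay below the other 4, which spanned less than the knockout difference. The fall was 1.02 (SE 0.09, 2.02-fold, limma adjusted p = 9.4e-05), and the rise with active Foxo1 was 0.91 (SE 0.11, 1.89-fold, adjusted p = 5.7e-04). The Foxo1KO/Foxo1AAA array was -0.10 from WT (95% interval from -0.36 to 0.16, adjusted p = 0.52), and the Foxo1AAA array -0.15 (95% interval from -0.41 to 0.11, adjusted p = 0.36).

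Sh2d1a lies on the X chromosome, and the arrays differed in sex-linked transcripts. The Y-linked Eif2s3y (1417210_at) was low on the first array of WT (3.91) and of Foxo1KO (4.05). It was high on the second of each (10.09 and 9.91), in Foxo1AAA (10.59) and in Foxo1KO/Foxo1AAA (10.56). Xist (1436936_s_at) measured 12.03 to 13.43 on the WT and Foxo1KO arrays, and 6.04 and 6.27 on the arrays with active Foxo1. Between arrays of low Eif2s3y, the first of each group, Sh2d1a differed by -1.07 from WT to Foxo1KO, and between the second arrays by -0.96. The same pairs gave -1.54 and -1.49 for Slamf6, 1.58 and 2.07 for Slamf7, and 0.38 and 0.50 for Cd48. The rise of Sh2d1a from the second Foxo1KO array to Foxo1KO/Foxo1AAA, both of high Eif2s3y, was 0.87. These 2 arrays were not alike in Xist (1436936_s_at), at 12.59 in Foxo1KO and 6.27 in Foxo1KO/Foxo1AAA, so the pair is not matched in sex-linked transcripts. No WT or Foxo1KO array was as low in Xist as the arrays with active Foxo1. Every comparison of the arrays with active Foxo1 against WT or Foxo1KO is therefore also a comparison of low with high Xist. This holds for all the receptors and adaptors followed here, including Slamf6, Slamf7 and Sh2d2a, and not for Sh2d1a alone. The part of sex-linked transcripts in the values of any of these genes with active Foxo1 was not tested further.

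Sh2d2a (TSAd) did not follow Sh2d1a. Probe set 1449105_at measured 9.63 and 9.72 in WT, 9.62 and 9.70 in Foxo1KO, 10.28 in Foxo1AAA and 10.40 in Foxo1KO/Foxo1AAA. WT and Foxo1KO overlapped (difference -0.01, 95% interval from -0.23 to 0.20, adjusted p = 0.95). It was 0.60 above WT in Foxo1AAA (SE 0.12, limma adjusted p = 0.0073) and 0.74 above Foxo1KO in Foxo1KO/Foxo1AAA (SE 0.12, adjusted p = 0.0018).

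Across the comparisons with active Foxo1, 6 of the 8 genes were called between Foxo1KO/Foxo1AAA and Foxo1KO, 3 in each direction, where 39.8% of tested genes were called. Probe sets were called in 10 of 13 cases there, against 30.7% of all. Between Foxo1AAA and WT, 3 of the 8 were called (Slamf6 and Sh2d2a higher, Slamf1 lower by its leading probe set), against 27.5% of genes, and 4 of 13 probe sets against 23.6% of all. Between Foxo1KO/Foxo1AAA and WT, 4 of the 8 were called (Slamf6, Slamf7 and Sh2d2a higher, Slamf1 lower by its leading probe set), against 30.7% of genes, and 7 of 13 probe sets against 24.3%. That Slamf1 call (-0.57) was lost with its probe sets averaged (-0.10, adjusted p = 0.52, range over alternatives 0.0027 to 0.52), and its probe set 1425569_a_at was called higher than WT there (0.62, adjusted p = 0.0098, limma). These comparisons share arrays. With each array centred on its median, the median of all tested genes in the comparison of Foxo1KO/Foxo1AAA with Foxo1KO went from -0.02 to -0.19, and the calls over all genes went from 2670 higher and 2760 lower to 1686 higher and 4603 lower. Against WT they went from 1834 higher and 1924 lower to 1160 and 3805 for Foxo1AAA (median -0.19), and from 2317 higher and 1876 lower to 1419 and 4573 for Foxo1KO/Foxo1AAA (median -0.22). The signs of all called values of the 8 genes held under that scaling.

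**Figure D4:**
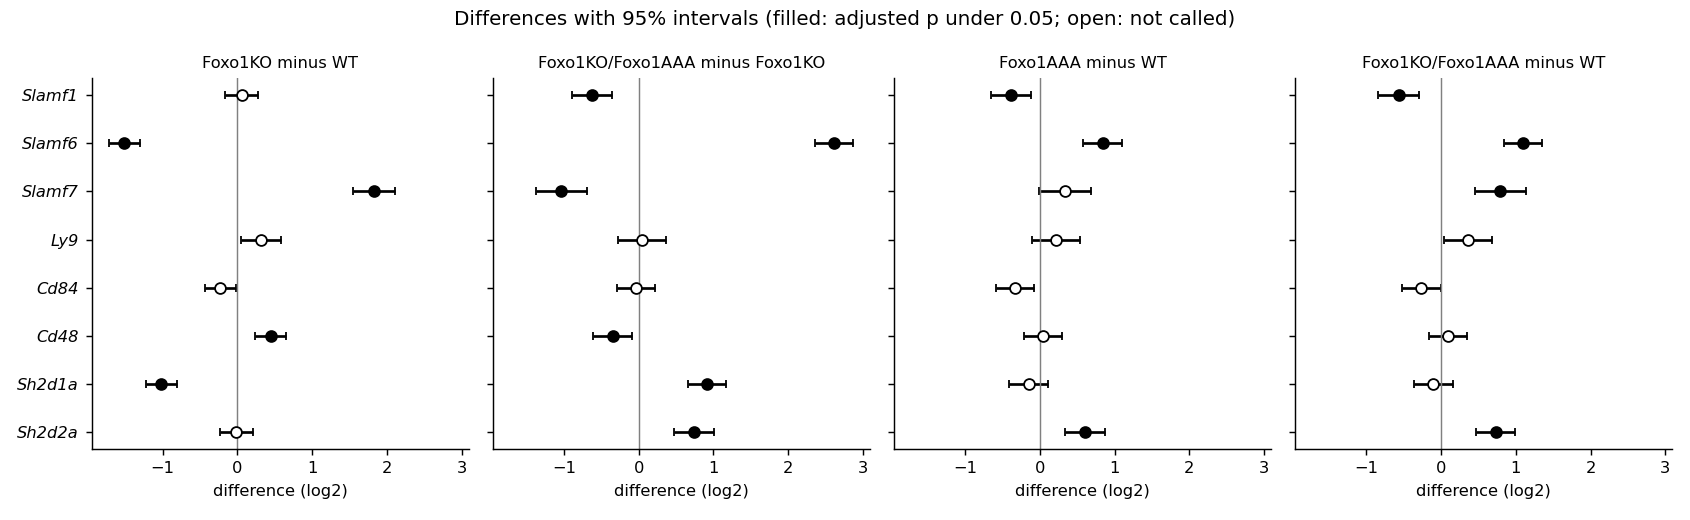
Difference in log2 units (horizontal axis) with its 95% interval for the 8 genes in 4 comparisons, filled where the adjusted p was under 0.05. Slamf6 and Sh2d1a lie below 0 in Foxo1KO and above 0 where active Foxo1 was added to the knockout, with Slamf7 and Cd48 the reverse.

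The knockout difference itself was compared with and without active Foxo1, by an interaction term. It differed for 3 of the 8 genes, against 5.94% of all tested genes, and for 6 of the 13 probe sets, against 2.98%. For Slamf6 the difference between knockout and not went from -1.51 without Foxo1AAA to 0.26 with it, a change of 1.77 (SE 0.16, limma adjusted p = 8.2e-04). Its other probe sets gave 1.51 and 1.81 (adjusted p = 0.0063 each). For Slamf7 the change was -1.37 (SE 0.21, adjusted p = 0.0089), and for Sh2d1a it was 1.06 (SE 0.16, adjusted p = 0.0082). The Cd84 probe set 1446505_at gave 0.98 (adjusted p = 0.030 over all probe sets), and for Cd48 the change of -0.39 was not called (95% interval from -0.76 to -0.02, adjusted p = 0.23). Between Foxo1KO/Foxo1AAA and Foxo1AAA, 0 of the 8 genes and 0.0733% of all tested genes were called by limma, with 1 of the 8 (Slamf7, 0.46) at an unadjusted p under 0.05.

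The 6 receptor genes stand in 1 cluster on chromosome 1, in the order Ly9, Slamf7, Cd48, Slamf1, Cd84 and Slamf6. Within it the rises called by leading probe sets (Slamf7 and Cd48) were neighbours, and the fall so called (Slamf6) stood at the far end. Cd84, next to Slamf6, was called lower by its probe set 1446505_at (-1.08, adjusted p = 2.9e-04, limma) and with its probe sets averaged (-0.65). Of 11 other genes inside the cluster or among the nearest 5 on either side, 8 were on the array and 6 were tested, and 0 of these 6 were called in Foxo1KO by limma, with 0 at an unadjusted p under 0.05. With 21.8% of all tested genes called, a count of 0 among 6 is not far from the background. Their differences ran from -0.06 (Ncstn, a subunit of gamma-secretase) to 0.13 (F11r, a junctional adhesion molecule), with a median of 0.10 against 0.03 over all tested genes. Among these neighbours, F11r lay below the filter level on 3 arrays and Cd244a, itself a SLAM family gene, on 1.

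**Figure D5:**
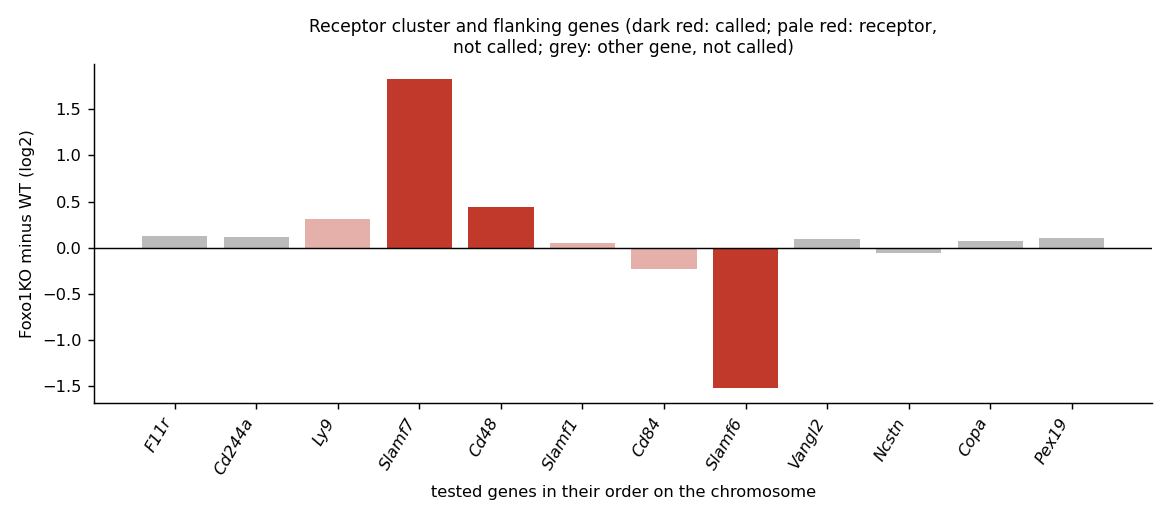
Difference between Foxo1KO and WT (log2, vertical axis) for the leading probe sets of the tested genes of the receptor cluster and its flanks. Genes are placed in their order on the chromosome with no scale of distance. Slamf7 (1.83) and Slamf6 (-1.51) stand out in opposite directions, and the flanking genes lie between -0.06 and 0.13.

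Of the other family genes, Cd244a, the receptor for Cd48, was dim, with a leading probe set at 5.31 to 5.55 on the WT and Foxo1KO arrays and 5.79 and 5.84 on the arrays with active Foxo1. Its other probe set, 1449991_at, measured 4.01 to 4.21 on the WT and Foxo1KO arrays, 5.65 in Foxo1AAA and 6.62 in Foxo1KO/Foxo1AAA. Fitted with every probe set, that probe set was higher in Foxo1AAA than in WT by 1.58 (adjusted p = 1.4e-04), with WT values below 5.47, the mean level under which genes were left out. Slamf9, a receptor of myeloid cells, measured 7.01 to 7.52 on the WT and Foxo1KO arrays, 6.57 in Foxo1AAA and 6.81 in Foxo1KO/Foxo1AAA. Slamf8, also known from myeloid cells, lay below that level on 5 of the 6 arrays and reached 5.93 in Foxo1KO/Foxo1AAA. Of the 2 genes of this list that were tested, 0 were called in Foxo1KO by limma, and 0 had an unadjusted p under 0.05.

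Downstream of the receptors, 15 of 17 listed signalling partners of SLAM and SAP were tested. In Foxo1KO, 5 were lower and 2 higher, with a median of -0.11 against 0.03 over all tested genes, of which 21.8% were called (1523 higher and 1457 lower). The tyrosine phosphatase Ptpn6 (SHP-1), which binds SLAM tails in competition with SAP, fell by 0.58 (SE 0.10, limma adjusted p = 0.0026). Rasa1, a Ras GTPase-activating protein, fell by 0.53 (adjusted p = 0.0041), and Malt1, a signalling protein of the NF-kappaB route, by 0.52 (adjusted p = 0.014). The inositol phosphatase Inpp5d (SHIP-1) rose by 0.52 (adjusted p = 0.0070). The Malt1 call was lost without WT replicate 1 (adjusted p = 0.080), Foxo1KO replicate 1 (0.087) or Foxo1KO replicate 2 (0.053), with a range of 0.0012 to 0.087, and that of Inpp5d without Foxo1KO replicate 2 (0.053, range 0.0013 to 0.053).

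Outside the rule for named genes, and with their values seen, the kinase Fyn itself differed by -0.30 and was not called (adjusted p = 0.11), and Cd2, the other partner of Cd48, differed by 0.06 (adjusted p = 0.73). With active Foxo1 in the knockout, Ptpn6 rose by 0.87 (adjusted p = 8.3e-04) and Inpp5d fell by 0.53 (adjusted p = 0.011, both limma), while Rasa1 differed by less than 0.01 (adjusted p = 0.99). Of 4 tested partners of TSAd, 2 were called where 21.8% of all tested genes were called, with a list median of -0.11. The adaptor Nck1 fell by 0.41 (adjusted p = 0.027) and the phospholipase Plcg1 by 0.37 (adjusted p = 0.026, both limma). Both calls were lost with probe sets averaged, and that of Plcg1 also with the replicate number as a block. The Nck1 call was lost without WT replicate 2 (0.12) or Foxo1KO replicate 1 (0.16), with a range of 0.012 to 0.16. That of Plcg1 was lost without WT replicate 1 (0.089), WT replicate 2 (0.086) or Foxo1KO replicate 1 (0.15), with a range of 0.0083 to 0.38.

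All 9 listed genes of lymphocyte programmes that are known to need SLAM and SAP were tested, and in Foxo1KO 3 were higher and 1 lower (median 0.27), beside the same 21.8% of all tested genes. Il4, a helper cytokine, measured 5.64 and 5.36 in WT, 7.13 and 6.75 in Foxo1KO, 7.07 in Foxo1AAA and 7.63 in Foxo1KO/Foxo1AAA, a knockout rise of 1.44 (SE 0.14, limma adjusted p = 1.6e-04). Il4 did not return with active Foxo1 but was higher by 0.69 in Foxo1KO/Foxo1AAA than in Foxo1KO, and by 1.57 in Foxo1AAA than in WT. Its value in WT replicate 2 (5.36) lay below the filter level. Btla, an inhibitory receptor, followed the Slamf6 direction, with 12.10 and 12.13 in WT, 10.79 and 10.84 in Foxo1KO, 12.25 in Foxo1AAA and 12.30 in Foxo1KO/Foxo1AAA (fall of 1.30, SE 0.09, adjusted p = 2.6e-05). The transcription factor Maf rose by 0.84 (adjusted p = 0.0052) and the cytokine Il21 by 0.69 (adjusted p = 0.022, both limma). For Il21 both WT values and that of Foxo1KO replicate 2 (5.41) lay below the filter level. Centring each array on its median took Il21 past the threshold. The Il21 call was lost without WT replicate 1 (0.071) or Foxo1KO replicate 1 (0.14), with a range of 0.0035 to 0.14. Bcl6, Cxcr5, Icos and Pdcd1, genes of follicular helper cells, and Zbtb16, of NKT cells, were not called in Foxo1KO.

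Over the 29 tested genes of these 4 lists together, 12 were called in Foxo1KO, 5 higher and 7 lower, with a median of 0.06 against 0.03 over all tested genes, of which 21.8% were called. The count went down to 6 without Foxo1KO replicate 1, where 2014 of all 13645 tested genes were called, and lay between 6 and 9 when 1 of the 4 replicated arrays was left out.

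For each gene called in Foxo1KO, the tested genes with the most similar pattern were found by the Euclidean distance between log2 values centred over the 6 arrays. Nearest to Slamf6 were Aqp3, a water and glycerol channel, at 0.21 and the mitochondrial carrier Slc25a33 at 0.25. Aqp3 measured 8.31 and 8.26 in WT, 6.88 and 6.72 in Foxo1KO, 8.97 in Foxo1AAA and 9.31 in Foxo1KO/Foxo1AAA. Nearest to Slamf7 were the myosin light chain gene Myl4 (0.23) and the elongation factor gene Ell2 (0.27). Nearest to Cd48 were Mgat4a and Fancf (0.05 each), and nearest to Sh2d1a were Ipo4 and Pnpla7 (0.13 each).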

How the data were processed

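The deposited values are on the log2 scale, 1 column per array. RMA (background correction, quantile normalization and probe set summary), R 2.15 and limma 3.12.1 are named in the submitters' processing notes. Quantile normalization hides a shift of most transcripts in 1 direction, and arrays compress very bright and very dim values.

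The platform annotation paired 34958 of the 45101 probe sets with a single gene and 932 with several, and 9211 were not in it. Probe sets of a single gene were named, with symbols updated by Entrez identifier. Each of 18194 genes was represented by its probe set of highest mean, and the lowest 25% were left out, leaving 13645 genes with means of at least 5.47. limma 3.58.1 (R 4.3.3) fitted 1 coefficient for each of the 4 groups with an empirical Bayes variance (2 residual and 6.59 prior degrees of freedom). Tests were two-sided and adjusted by Benjamini-Hochberg over all genes. A second fit took every probe set. The smallest exact permutation p for 2 arrays a group is 0.333, so that test was not used. The script was tested on simulated data.

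The 8 genes and all lists were chosen with earlier results of these data known. All members were named, with up to 4 called genes of each other list by size and the 2 nearest patterns. Alternatives covered the probe set choice, filter, variance prior, normalization, each replicated array, a replicate block and the 4 WT and Foxo1KO arrays alone.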

Additional observations from a re-analysis of the deposited data

Results flagged for a closer look

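For 3 of the 8 genes the knockout difference was not the same with and without active Foxo1, by the interaction test over all tested genes (limma). Slamf6 changed by 1.77 (SE 0.16, adjusted p = 8.2e-04), from a difference of -1.51 without Foxo1AAA to 0.26 with it. Slamf7 changed by -1.37 (SE 0.21, adjusted p = 0.0089), from 1.83 to 0.46. Sh2d1a changed by 1.06 (SE 0.16, adjusted p = 0.0082), from -1.02 to 0.05. The 2 differences with active Foxo1 rest on 1 array each, and the adjusted p over the alternatives ran from 6.5e-05 to 0.0062 for Slamf6, 0.0011 to 0.032 for Slamf7 and 0.0016 to 0.029 for Sh2d1a.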

How the results depend on the processing

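Of 632 values recomputed for the 8 genes, 594 kept their direction and side of the threshold, 16 lost a call, 10 gained one and 12 changed sign. The 8 from the 4 WT and Foxo1KO arrays alone are equal by construction and check nothing. Leaving out 1 array gave 3 to 4 called members for Foxo1KO against WT, 5 for Foxo1KO/Foxo1AAA against Foxo1KO, 2 for Foxo1AAA against WT and 4 for Foxo1KO/Foxo1AAA against WT, and 6 to 9 related genes. None of the values that changed sign was called in either setting. Between Foxo1KO and WT these were Sh2d2a (0.021 with cyclic loess, and -0.059 to 0.032 when 1 array was left out, above 0 without WT replicate 2 or Foxo1KO replicate 1) and Slamf1 (-0.0079 to 0.12 when 1 array was left out, below 0 without Foxo1KO replicate 2). From Foxo1KO to Foxo1KO/Foxo1AAA they were Cd84 (0.29 with probe sets averaged) and Ly9 (-0.13 with centred arrays, -0.081 with cyclic loess, and -0.080 to 0.17 when 1 array was left out, below 0 without Foxo1KO replicate 1). The others were Cd48 in Foxo1AAA against WT (-0.12 with centred arrays, -0.0092 with cyclic loess) and in Foxo1KO/Foxo1AAA against WT (-0.11 with centred arrays), and Cd84 in Foxo1KO/Foxo1AAA against Foxo1AAA (-0.013 with probe sets averaged). The cause of these changes was not tested. With the replicate number as a block, 4 of 8 genes were called between Foxo1KO and WT as without it, 5 in place of 6 between Foxo1KO/Foxo1AAA and Foxo1KO, and 2 in place of 3 between Foxo1AAA and WT; over all genes the block took the knockout calls from 2980 to 2458. The calls lost with it were Cd48 (adjusted p = 0.089) between Foxo1KO/Foxo1AAA and Foxo1KO and Slamf1 (0.090) between Foxo1AAA and WT (limma). Deviations of same-numbered WT and Foxo1KO arrays over 13645 genes, which are not independent, gave r = -0.10. The numbers do coincide with high and low Eif2s3y in both groups, but the labels name no shared mouse, litter or day, so the block was not made the main fit. With 1 array a group, the active Foxo1 arrays have no replicate check of their own.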
